A study of Arabidopsis thaliana with 12 samples.

Results

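The genes described here encode the DET1-COP10-DDB1 complex of Arabidopsis thaliana and the cullin it works with. They are 6 of the 31916 named genes in the deposited tables, taken by locus: DET1 (AT4G10180), COP10 (AT3G13550), DDB1A (AT4G05420), DDB1B (AT4G21100), DDA1 (AT5G41560) and CUL4 (AT5G46210). Transcripts were measured by RNA sequencing of seedlings in 12 libraries, 3 in each of 4 groups. Wild type (Columbia) moved to white light for 6 h, the mutant det1-1 in darkness and the mutant pifq in darkness were each set against wild type kept in darkness. In all groups, seeds chilled for 3 days were exposed to light (12 h), and the seedlings grew in the dark for 4 days. The det1-1 line carries a point allele of DET1, known as a partial loss of function, so its seedlings keep some DET1 activity. The pifq line lacks the bHLH factors PIF1, PIF3, PIF4 and PIF5 and keeps the other PIF genes. The study's title asks how DET1 acts on the PIFs in the dark, and the values below show how much transcript of the complex itself was present in each condition.

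DET1 is a nuclear protein that holds back light development (photomorphogenesis) in dark-grown seedlings, and plants with weak DET1 function open and green their cotyledons in darkness. With COP10, a ubiquitin-conjugating enzyme variant that has no catalytic cysteine, and the adaptor DDB1, it forms a complex that assists ubiquitination of regulatory proteins. DDA1 is a small protein that joins DET1 and DDB1, and CUL4 is the scaffold on which DDB1 mounts substrate receptors at one end and the RING protein RBX1 at the other. These proteins act after transcription, and mRNA levels do not report their activity or their assembly.

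DDB1 is encoded by a closely related gene pair, and their sequences are shown because a read can be assigned to DDB1A or DDB1B only where they differ. In the TAIR10.1 annotation of RefSeq, DDB1A lies on chromosome 4 at 2746114 to 2753014 on the plus strand, and DDB1B on chromosome 4 at 11258759 to 11265605 on the minus strand. Both have 19 exons and 3267 coding bases, of which 87.3% are identical. The longest identical run is 44 bases, and it is printed with 18 bases on each side, from coding base 523 to 602 in both genes. Capitals mark the 7 positions of the 80 at which the genes differ.

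DDB1A: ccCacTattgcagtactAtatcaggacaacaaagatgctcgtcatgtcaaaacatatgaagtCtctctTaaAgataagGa

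DDB1B: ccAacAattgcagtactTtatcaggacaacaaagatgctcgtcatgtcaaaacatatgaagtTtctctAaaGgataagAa

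Of the 3761 stretches of 32 bases in the longest annotated DDB1A transcript, 26 also occur in that of DDB1B. The values of the pair are therefore uncertain for reads that fall wholly in such stretches, and how the authors handled them is not given in the sources used here. No stretch of 32 bases in the longest annotated transcript of DET1, COP10, DDA1 or CUL4 occurs elsewhere in the genome. DET1 lies on chromosome 4 at 6346411 to 6349314 (plus strand, 10 exons), COP10 on chromosome 3 at 4423237 to 4424894 (minus strand, 4 exons), DDA1 on chromosome 5 at 16621197 to 16622757 (minus strand, 4 exons) and CUL4 on chromosome 5 at 18731371 to 18736815 (minus strand, 17 exons).

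Levels are FPKM as the authors deposited them (reads scaled for transcript length and library size), and each gene analysed has 1 value in each group of a table. With no value per library and no count, depth is unknown, no difference has a replicate check, and no test could be made. Genes at least 1.5-fold from dark wild type are called, and 2-fold is given as a stricter call. The labels were checked on other genes: PIF3 was 0.802 FPKM in pifq against 30.2 FPKM in dark wild type, and ELIP1, a light-induced chlorophyll-binding protein, was 1373 FPKM in light and 3.48 FPKM in dark wild type. For det1-1, known for light-type gene expression in darkness, ELIP1 was 89.1 FPKM, against 3.23 FPKM in dark wild type. PORA, the protochlorophyllide reductase that marks etiolated seedlings, was 3.08 FPKM in light and 178 FPKM in dark wild type. In det1-1 PORA was 3.72 FPKM, against 161 FPKM in dark wild type. Neither gene showed this direction in pifq. There ELIP1 was 0.256 FPKM against 3.39 FPKM in dark wild type, and PORA was 181 FPKM against 173 FPKM. PIF5 was 1.39 FPKM in pifq against 9.44 FPKM in dark wild type. Because RNA came from seedlings and not from sorted cells, fewer cells of a type and less RNA per cell cannot be told apart in any value below.

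None of the 17 member folds reached 2-fold, 2 reached 1.5-fold, and 10 were under 1.2-fold. The calls at 1.5-fold were DET1 in light, which was higher, and DDA1 in pifq, which was lower. In light, 1 of 6 members was called higher and 0 lower, against 21.7% and 19.6% of the 14810 genes analysed. In det1-1, 0 of 6 were called, against 26.0% of 14844 genes higher and 21.2% lower. In pifq, 0 of 5 were called higher and 1 was called lower, against 23.4% and 23.0% of 15014 genes. At 2-fold, 22.5% of genes were called in light, 27.0% in det1-1 and 26.1% in pifq. With so few members, the counts in light and pifq are near the background. The median absolute log2 fold of the members was 0.36 in light, 0.14 in det1-1 and 0.27 in pifq, where that of all genes analysed was 0.46, 0.54 and 0.53. In det1-1, in which the largest share of genes was called, all 6 members had absolute log2 folds of at most 0.24.

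**Figure D1:**
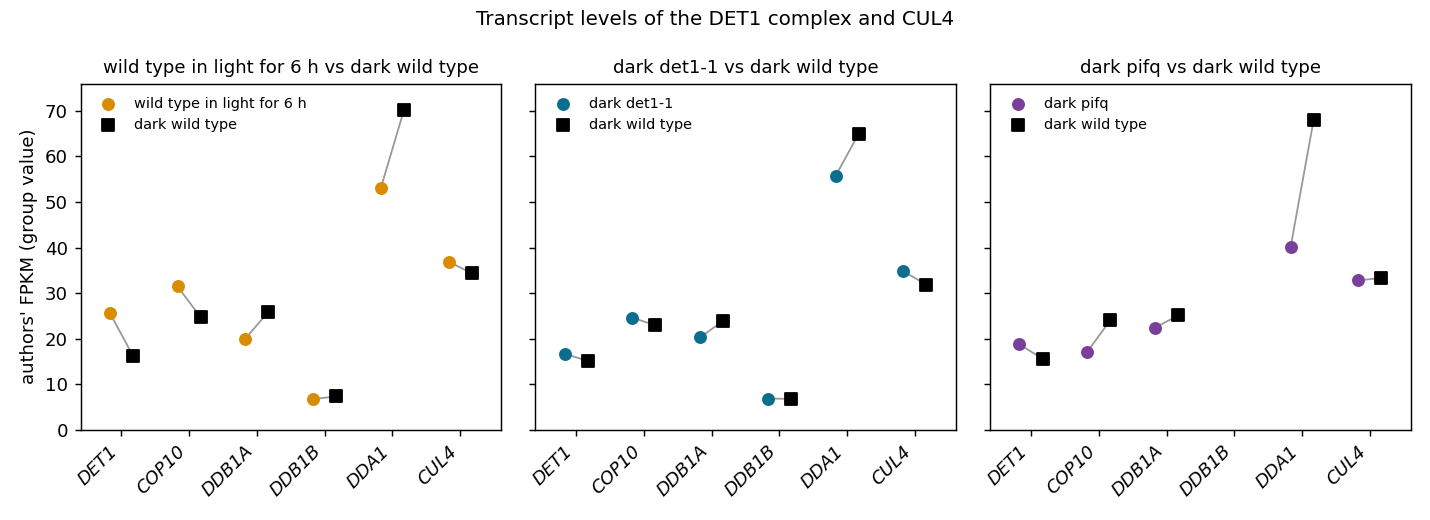
Authors' FPKM of each gene (y axis, linear) in the named condition (coloured circle) and in dark wild type of the same table (black square), 1 group value each, with no spread. DET1 is above its dark level in every panel and DDA1 below it, most clearly in pifq at 40.1 FPKM against 67.9 FPKM. DDB1B has no point in the pifq panel.

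DET1, the subunit that names the complex, had more transcript after 6 h of light. It was 25.6 FPKM in light, against 16.3 FPKM in dark wild type, a fold of 1.58 (log2 0.66), and 19.6% of all genes analysed had a larger log2 fold. After adding 5 FPKM to each group, its log2 fold was 0.53, under 1.5-fold. In pifq, DET1 was 18.7 FPKM, against 15.6 FPKM in dark wild type (log2 0.27). The mutant det1-1 itself had 16.7 FPKM, against 15.1 FPKM in dark wild type (log2 0.14). All 3 values were above dark wild type, and only that in light passed 1.5-fold. The det1-1 value does not check the label, since a point allele need not change the amount of transcript. Each value is for the whole gene, so it does not show whether the DET1 transcript in det1-1 was normal or altered.

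COP10 differed in direction between the conditions. It was 31.4 FPKM in light, against 24.7 FPKM in dark wild type (log2 0.35). The det1-1 value was 24.6 FPKM, against 22.9 FPKM in dark wild type (log2 0.10). In pifq it was 17.1 FPKM, against 24.0 FPKM in dark wild type (log2 -0.49), which is 1.41-fold lower. None of these reached 1.5-fold, and the difference between the conditions was not tested.

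DDB1A, the more abundant of the DDB1 adaptor genes, was below dark wild type in every comparison by less than 1.5-fold. It was 20.0 FPKM in light and 25.8 FPKM in dark wild type (log2 -0.37). It was 20.2 FPKM in det1-1 and 23.9 FPKM in dark wild type (log2 -0.24). It was 22.4 FPKM in pifq and 25.1 FPKM in dark wild type (log2 -0.16). DDB1B was close to its dark level in both tables that list it, at 6.70 FPKM in light against 7.29 FPKM in dark wild type (log2 -0.12). Its det1-1 level was 6.83 FPKM, against 6.75 FPKM in dark wild type (log2 0.02). DDB1A thus exceeded DDB1B 2.98 times in light and 2.97 times in det1-1, against 3.54 times in dark wild type of either table.

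DDB1B was not analysed in pifq, and the genes on either side of it bear on its values. AT4G21105 overlaps DDB1B by 127 bases on the opposite strand and was far more abundant. It was 288 FPKM in light against 290.2 FPKM in dark wild type. Dark det1-1 seedlings had 464 FPKM, against 269 FPKM in dark wild type. Whether the authors' counting used strand is not given in the sources used here, so reads from the overlap cannot be assigned to either gene with certainty. AT4G21090 (chromosome 4, 11256399 to 11258660) lies 98 bases from DDB1B on the same strand. Its dark wild type value was 16.2 FPKM in the pifq table but 9.21 FPKM in the light table, a 1.81-fold difference after scaling for the same libraries. The dark wild type values of AT4G21090 and DDB1B in the light table sum to 16.5 FPKM. Whether fragments of DDB1B were counted for AT4G21090 in the pifq table was not tested.

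DDA1, the small subunit that joins DET1 and DDB1, had the highest level of the 6 and the lowest fold in both light and pifq. In pifq it was 40.1 FPKM, against 67.9 FPKM in dark wild type, 1.70-fold lower (log2 -0.76), and 81.8% of genes analysed had a higher log2 fold. In light it was 53.1 FPKM, against 70.1 FPKM in dark wild type (log2 -0.40). Dark det1-1 seedlings had 55.8 FPKM, against 65.0 FPKM in dark wild type (log2 -0.22). DDA1 was thus below dark wild type in all comparisons and past 1.5-fold in pifq alone.

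CUL4, the scaffold, had log2 folds of at most 0.13 in size. It was 36.9 FPKM in light against 34.3 FPKM in dark wild type (log2 0.11). The det1-1 value was 34.8 FPKM, against 31.8 FPKM in dark wild type (log2 0.13), and in pifq 32.8 FPKM, against 33.3 FPKM in dark wild type (log2 -0.02). In pifq, 97.4% of all genes analysed lay further from 0 than CUL4 on the log2 scale.

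**Figure D2:**
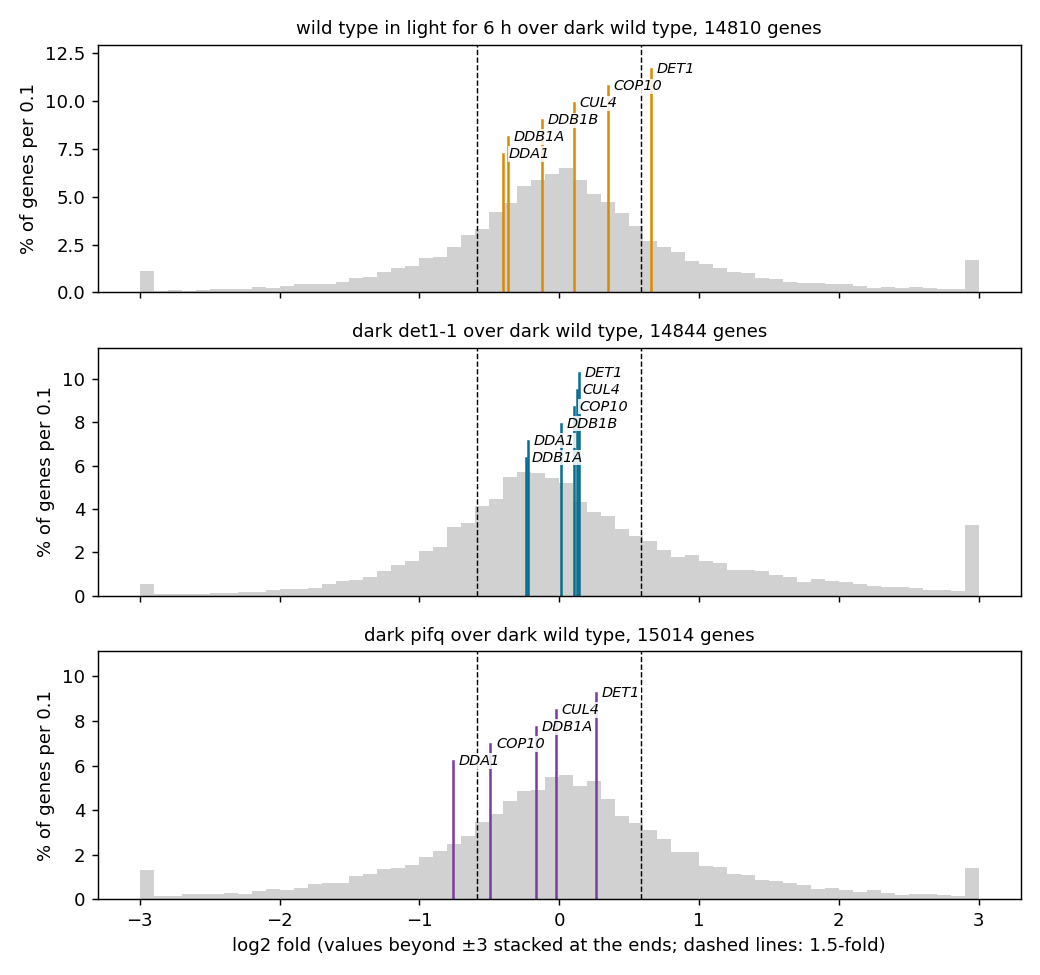
Each panel is a histogram of log2 folds over dark wild type for all genes analysed (x axis, clipped at 3 either way; y axis, percent of genes per bin of 0.1), with a vertical line at each member's log2 fold; line heights only separate the labels. DET1 lies to the right of the 1.5-fold line in light (log2 0.66), no member passes either line in det1-1, and DDA1 lies left of it in pifq (log2 -0.76).

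The same dark wild type libraries were quantified in each table, which shows how far a value depended on the run. After scaling by the median ratio, each member's dark wild type values differed between tables by at most 1.66%, reached by DET1. Over the 15036 genes with at least 1 FPKM of dark wild type in every table, 89.7% were within 1.5-fold. This measures the computation only and not the spread between seedlings or libraries.

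The order of levels was steady at the top and bottom. FPKM is scaled for length, but how well it compares genes of unlike length was not tested. DDA1 has the shortest transcript of the members, at 768 bases. DDA1 was first and CUL4 second in every group of every table, and DDB1B was last wherever it was listed. The middle of the order differed. In dark wild type DDB1A, COP10 and DET1 followed in that order, with DDB1A only 1.05 times COP10 in the light table. In light the order was COP10, DET1 and DDB1A, at 31.4, 25.6 and 20.0 FPKM. In det1-1 it was COP10, DDB1A and DET1, and in pifq DDB1A, DET1 and COP10. Neighbours among these 3 were 1.04 to 1.54 times apart, and without a spread it cannot be said which of them differ.

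Ratios between members within a group do not depend on how a table was scaled. DET1 transcript was 0.483 times that of DDA1 in light, against 0.232 times in dark wild type. It was 0.467 times that of DDA1 in pifq, against 0.229 times in dark wild type. In det1-1 the ratio was 0.299, against 0.232 in dark wild type. The DET1 to DDA1 ratio was thus 2.08 times its dark wild type value in light, 1.29 times in det1-1 and 2.04 times in pifq. In light and pifq, DET1 had the highest and DDA1 the lowest fold of the members. This pair therefore gives the largest change in ratio there by selection. How often other gene pairs differ as much was not computed. DET1 was higher and DDA1 lower in every comparison. The log2 folds in light were 0.66 for DET1 and -0.40 for DDA1, and in pifq 0.27 for DET1 and -0.76 for DDA1. For det1-1 they were 0.14 for DET1 and -0.22 for DDA1.

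The DET1 to COP10 ratio stood further from dark wild type in pifq than in light. It was 0.816 in light against 0.659 in dark wild type, 0.678 in det1-1 against 0.659 in dark wild type, and 1.10 in pifq against 0.648 in dark wild type. DET1 transcript exceeded that of COP10 in pifq alone. DET1 to DDB1A was 1.28 in light against 0.630 in dark wild type, and 0.836 in pifq against 0.621 in dark wild type. DDA1 to CUL4 was below its dark wild type value of 2.04 in every condition, at 1.44 in light, 1.60 in det1-1 and 1.22 in pifq.

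**Figure D3:**
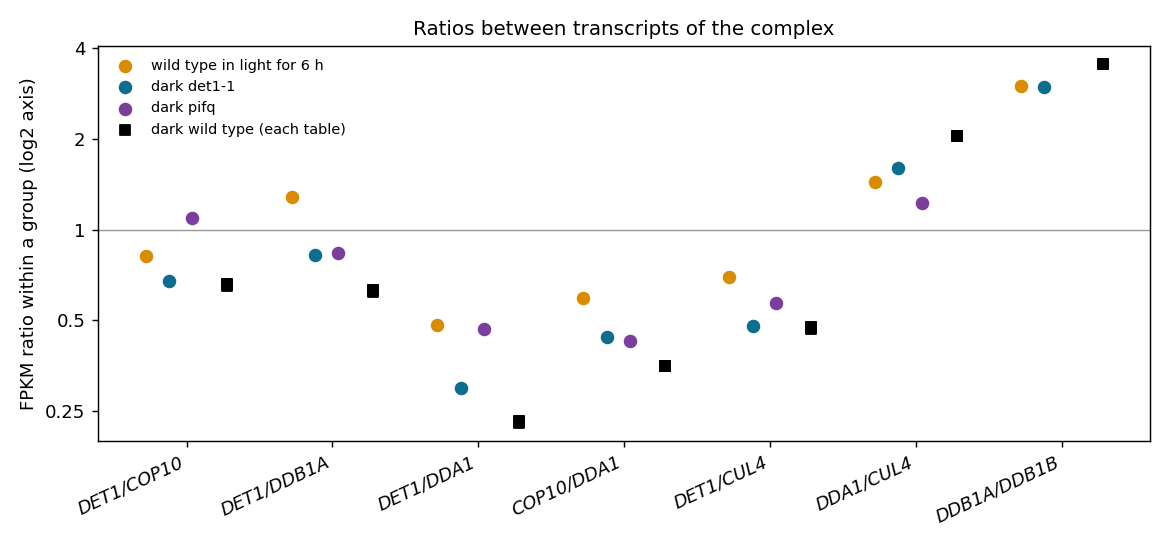
FPKM ratios between named pairs of genes (y axis, log2 scale) within each group: coloured circles for wild type in light, dark det1-1 and dark pifq, and black squares for dark wild type in each table. DET1/DDA1 is 0.483 in light and 0.467 in pifq, above the dark wild type squares near 0.23, and DET1/COP10 is above 1 in pifq only.

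The genes most like each member were found by Euclidean distance over the 3 log2 folds, among 8312 genes with at least 5 FPKM in every group. These folds share the dark wild type libraries, so likeness in all of them can come from that group. Nearest to DET1 were AT4G11630, annotated as a ribosomal protein L19 family member, at 0.10, and AT3G13930, a dihydrolipoamide acetyltransferase, also at 0.10. Nearest to COP10 were UBC6, a ubiquitin-conjugating enzyme gene, at 0.067 and AT2G16710, of iron-sulfur cluster biosynthesis, at 0.067. For DDA1 they were AT3G02460 at 0.071 and VEP1 at 0.082, for DDB1A AT3G52760 at 0.034 and BSK7 at 0.055, and for CUL4 AT2G39960 at 0.044 and AT1G55170 at 0.046. Within a distance of 0.25 lay 79 genes (0.951% of those compared) for DET1, 74 (0.890%) for COP10, 70 (0.842%) for DDA1, 255 (3.07%) for DDB1A and 268 (3.22%) for CUL4.

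The wider CUL4 ligase was described over 46 genes in 6 lists. Among its cofactors and the enzymes that attach the ubiquitin-like RUB protein to cullins, 0 of 6 analysed were past 1.5-fold in light, against 21.7% of all genes higher and 19.6% lower (median log2 0.13). In det1-1 there were 0 of 6, against 26.0% of all genes higher and 21.2% lower (median 0.17). In pifq 0 of 8 were higher and 1 was lower, against 23.4% and 23.0% of all genes, and the median was -0.25 over these 8 and -0.09 over the 6 analysed in all tables. That gene was RCE1, the RUB-conjugating enzyme, at 70.0 FPKM in pifq against 111 FPKM in dark wild type. RBX1A, the RING partner of CUL4, was analysed in pifq alone, at 79.6 FPKM against 102 FPKM in dark wild type (log2 -0.35). Of the other cullins, 0 of 3 analysed in light, 0 of 3 in det1-1 and 0 of 2 in pifq were past 1.5-fold, too few to set against those shares. CUL1 was 90.4 FPKM in light against 100.1 FPKM in dark wild type, and CUL3A was 36.8 FPKM against 39.4 FPKM.

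The COP9 signalosome, which removes RUB from cullins, had no analysed subunit past 1.5-fold. This leaves out CSN7 and CSN4, whose dark wild type values in the pifq table differed from those in the other tables. By their FPKM, CSN7 was past 1.5-fold in light (58.8 against 27.4 FPKM in dark wild type). CSN4 was past it in det1-1 (41.8 against 27.4 FPKM in dark wild type). The counts were 0 of 7 in light, against 21.7% of all genes higher and 19.6% lower, 0 of 7 in det1-1, against 26.0% and 21.2%, and 0 of 8 in pifq, against 23.4% and 23.0%. In light the 7 log2 folds lay between 0.11 and 0.51, with a median of 0.36, where the median of all genes was 0.02. In det1-1 the 7 lay between 0.06 and 0.58, with a median of 0.28 against -0.03 for all genes. In pifq the median was 0.05, against 0.01 for all genes.

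Of the DDB1-binding substrate receptors, 2 of 9 analysed were past 2-fold higher in light, 4 of 9 in det1-1 and 1 of 11 in pifq, and none was 1.5-fold lower. Among all genes analysed, 12.4% were 2-fold higher in light, 17.3% in det1-1 and 12.9% in pifq, so the counts in light and pifq are near the background. Limited to receptors with at least 1 FPKM in dark wild type, which leaves out DRS1, the counts were 2 of 8 in light, 3 of 8 in det1-1 and 0 of 10 in pifq. The share of all genes under this limit was not computed, so these counts have no background. The receptors' median log2 fold was 0.35 in light, 0.25 in det1-1 and 0.14 in pifq. The medians over the 8 analysed in every comparison, which include DRS1, were 0.37, 0.66 and 0.27. That of 0.66 in det1-1 lies between DWA1 (log2 0.25) and DRS1 (log2 1.07), so it depends on DRS1 and shows no general rise. DDB2, which recognises ultraviolet damage in DNA, was 15.9 FPKM in light against 2.77 FPKM in dark wild type (5.73-fold). In det1-1 it was 5.59 FPKM against 2.57 FPKM in dark wild type (2.18-fold), and in pifq 2.83 FPKM against 2.68 FPKM in dark wild type. WDR55, a WD40 protein, was 9.03 FPKM in light against 3.75 FPKM in dark wild type. Its det1-1 level was 9.24 FPKM, against 3.48 FPKM in dark wild type. PRL1, a nuclear WD40 protein, was 87.4 FPKM in det1-1 against 39.9 FPKM in dark wild type. The dark wild type value of PRL1 was 43.1 FPKM in the light table but 58.9 FPKM in the pifq table. Scaling of the tables does not remove this difference. Over the scaled value of the pifq table, PRL1 would not be past 2-fold in det1-1. The det1-1 counts of receptors above therefore depend on the table used for PRL1, and that of 4 of 9 also on DRS1. No excess over the background is read from them. DRS1 was called in det1-1 (1.38 against 0.658 FPKM in dark wild type) and in pifq (1.85 against 0.732 FPKM in dark wild type), but so low a gene could be analysed only if higher, and with 1 FPKM added to both groups its log2 folds were 0.52 and 0.72.

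The COP1-SPA ligase and the RUP proteins, which also dock on CUL4-DDB1, held the largest log2 fold of the 6 lists in light and in det1-1. In pifq DRS1 had the largest (log2 1.34), but so low a gene could be analysed only if higher. With 1 FPKM added to both groups, the pifq log2 fold was 0.72 for DRS1 and 1.05 for SPA1. In light 6 of 6 analysed genes were past 2-fold higher, against 12.4% of all genes (median log2 2.61). In det1-1 there were 5 of 6, against 17.3% (median 1.88), and in pifq 1 of 5, against 12.9% (median 0.11). SPA3 and SPA4 were analysed in light and det1-1 alone and SPA2 in pifq alone, and over the 4 genes analysed in all tables the medians were 2.83, 2.17 and 0.52. RUP2, a repressor of the UVR8 photoreceptor, was 70.8 FPKM in light against 2.47 FPKM in dark wild type and, in det1-1, 50.8 FPKM against 2.29 FPKM. It was 4.58 FPKM in pifq against 2.41 FPKM in dark wild type (log2 0.92). RUP1, the related repressor, was 69.4 FPKM in light against 10.8 FPKM in dark wild type (log2 2.69). The log2 fold of RUP1 in det1-1 was 1.91, with 37.5 FPKM there. In pifq RUP1 was 8.60 FPKM, against 10.5 FPKM in dark wild type. SPA1 was 40.8 FPKM in light against 5.19 FPKM in dark wild type. SPA1 in det1-1 was 26.0 FPKM against 4.81 FPKM in dark wild type, and in pifq 11.5 FPKM against 5.02 FPKM in dark wild type. In the histone H2B deubiquitination module, which DET1 is known to control, 1 of 2 analysed genes was past 1.5-fold lower in light, 1 of 2 in det1-1 and 1 of 3 in pifq, where 19.6%, 21.2% and 23.0% of all genes were, and with so few genes nothing is read from these counts. SGF11, its adaptor, was 18.6 FPKM in light against 33.0 FPKM in dark wild type. Its det1-1 level was 16.4 FPKM, against 30.6 FPKM in dark wild type. ENY2 was 24.2 FPKM in pifq against 40.3 FPKM in dark wild type.

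**Figure D4:**
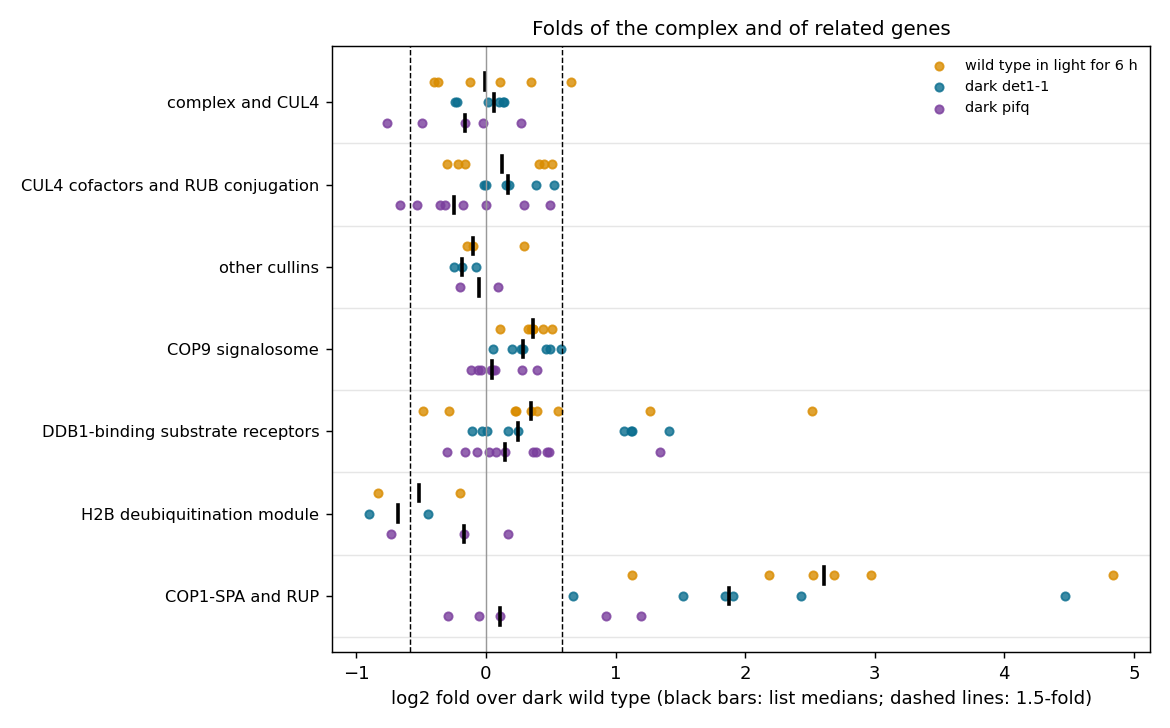
Log2 fold over dark wild type (x axis) of every analysed gene in the complex and in 6 related lists (y axis), with a point per gene coloured by condition and a black bar at each list median. The complex, RUB enzymes, other cullins and signalosome lie mostly between the dashed 1.5-fold lines, while the COP1-SPA and RUP genes reach log2 4.84 in light and 4.47 in det1-1.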

How the data were processed

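Seedling RNA (Qiagen kit) was made into Illumina libraries, per the labels' protocols. The submitters' processing notes name TopHat, Cufflinks and TAIR10, without versions, settings or use of strand. The deposited FPKM values are in 3 tables, each normalized separately, with 1 value per entry and group. Some genes have several entries in a table, and these were not analysed. The unit was inferred from Cufflinks and the values. The authors also deposited a log2 ratio per gene.

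Log2 folds were computed from FPKM without a pseudocount in Python 3.11.15 with pandas 2.3.3, for genes with 1 named entry that the authors' program had compared, above 0 in both groups, with at least 1 FPKM in the higher, and with dark wild type values within 1.5-fold between tables scaled to the light table (factors 0.927 and 0.971). This procedure was run on simulated tables with set folds and no noise, which checks the code and cannot show how often calls in these data are wrong. Calls at 1.5-fold stand in for tests, since the planned tests need values per library. Every member is described in each comparison, and of the other lists up to 3 genes past 1.5-fold with the largest log2 folds. RBX1A, RBX1B, CSN4, CSN7, CUL1, CUL3A, AT4G21090 and AT4G21105 were named after their values were seen. The members and lists were chosen with earlier results of these data known. Identity of DDB1A and DDB1B was computed with Biopython 1.88. A promoter comparison is not reported here.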

Additional observations from a re-analysis of the deposited data

How the results depend on the processing

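All 119 member log2 folds computed under other settings kept the direction of the reported value: 1 or 5 FPKM added to both groups, centring on the median of all genes, the mean dark wild type of the tables, the authors' deposited table's own ratio, no minimum level, and a minimum of 5 FPKM. Only centring and the mean dark wild type could have changed a direction. Adding FPKM to both groups cannot do so, and the authors' ratio is of the same values. The limits on level leave each fold as it is. Without the setting that adds 5 FPKM, none moved by more than 0.031 on the log2 scale. With 5 FPKM added, DET1 in light had a log2 fold of 0.53, under the 1.5-fold call, and the count of members past 1.5-fold in light was 0 in place of 1. The call of DDA1 in pifq was kept in all of these settings. DDB1A over DDB1B was likewise under 1.5-fold from its dark value with 1 FPKM added to both genes. A limit of 1 FPKM in dark wild type, applied to the substrate receptors after seeing the data, changed the pifq count of receptors past 2-fold higher to 0 of 10 in place of 1 of 11, since it leaves out DRS1.

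No paired analysis was possible because the tables hold 1 value per group and none per library. For the same reason leaving out each replicate was not run. The error of each value from depth and from the spread between libraries is unknown.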

Other observations

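The signalosome subunits CSN7 and CSN4 were left out of the counts because their dark wild type values differed between tables of the same libraries. CSN7 was 58.8 FPKM in light against 27.4 FPKM in dark wild type. In det1-1 it was 37.6 FPKM against 25.4 FPKM in dark wild type, and in pifq 150.3 FPKM against 187 FPKM in dark wild type. CSN4 was 43.0 FPKM in light against 29.6 FPKM in dark wild type. In det1-1 it was 41.8 FPKM against 27.4 FPKM in dark wild type, and in pifq 15.1 FPKM against 10.2 FPKM in dark wild type. RBX1B, the other RBX1 gene, was listed at 0 in both groups of the light and det1-1 tables and at 0.093 FPKM in pifq against 0 in dark wild type.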
